A study of Arabidopsis thaliana with 24 samples.

Results

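The response of wild-type Arabidopsis root tips to zeocin was read from 6 libraries, 3 treated and 3 mock, of the 12 in the study. Zeocin is a bleomycin-type compound that cuts both strands of DNA. The treated plants were Col-0 wild-type (WT) seedlings 6 days old, moved for 2 h into liquid medium with zeocin. The mock plants were Col-0 WT seedlings of the same age, moved for the same time into liquid medium with DMSO. The other 6 libraries are zeocin and mock root tips of brl3-2, an insertion mutant of the brassinosteroid receptor gene BRL3, and serve here for the estimate of the spread and for a side-by-side comparison. The labels give 2 different zeocin concentrations, so no dose is attached to the values. Each library was sequenced in 2 runs, and the runs are not separate replicates. The labels call the 3 libraries of a group biological replicates but do not say how many seedlings each one pooled.

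In plants, DNA breaks are sensed by the kinases ATM and ATR, which activate the transcription factor SOG1. SOG1 then switches on repair genes, inhibitors of the cell cycle and further transcription factors. The root tip holds the dividing meristem and, behind it, young vascular tissue, where amino acids, ions and hormones are passed between phloem, stele and xylem. Many transporters that work there are known by name, as are the hormone and peptide signals that pattern new organs.

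The WT libraries held 32668516 to 73481046 counts, and both libraries numbered 3 were the deepest. Among the WT libraries those 2 also stood apart on the second principal component, which carried 15.3% of the variance. The check of the treatment held in every library. The 34 core DNA damage genes tested summed to 5837 to 6545 counts per 1e6 counts of the library (CPM) in zeocin libraries. In mock libraries they summed to 630 to 752 CPM. Of these 34 genes, 21 were called higher, none lower, and 13 were not called. The markers of the labelled tissue were present, with 161 to 169 CPM over 9 stem cell niche genes in zeocin libraries and 180 to 186 CPM in mock libraries. None of these 9 genes was called, although the sums do not overlap. The 4 root cap genes summed to 24.1 to 25.6 CPM in zeocin libraries and 18.4 to 29.2 CPM in mock libraries. Photosynthesis genes of the shoot were low, at 28.6 to 44.3 CPM in zeocin libraries and 27.0 to 40.0 CPM in mock libraries over 6 genes. Markers of differentiated endodermis varied widely within groups, with sums over 7 genes of 548 to 813 CPM in zeocin libraries and 381 to 1089 CPM in mock libraries. The highest sum of each group was in its library numbered 3, and none of the 7 was called. In whole root tips, fewer cells of a type and less RNA per cell cannot be told apart.

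Of 19437 genes tested with edgeR's quasi-likelihood test, 792 (4.07%) were higher after zeocin and 175 (0.9%) were lower at an adjusted p under 0.05, in all 967 (4.98%). At 2-fold or more these counts were 395 (2.03%) and 63 (0.324%). The rises were larger than the falls: 132 genes rose at least 8-fold, and 2 genes fell by as much. Together the 792 genes took 50781 ± 1118 CPM in zeocin libraries and 21811 ± 724 CPM in mock libraries (SD, n = 3 each). The 175 lower genes took 4296 ± 338 CPM in zeocin libraries and 6667 ± 35.4 CPM in mock libraries. The zeocin and mock values of every called gene did not overlap, and the same was true of other genes: 9.86% of the genes tested lay wholly higher in zeocin libraries and 6.35% wholly lower. The median log2 fold change of all genes was -0.01. With each WT library left out in turn, 540 of the 792 higher genes and 78 of the 175 lower genes kept their call every time. Below, a gene that lost its call in such a fit is said to have done so.

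**Figure D1:**
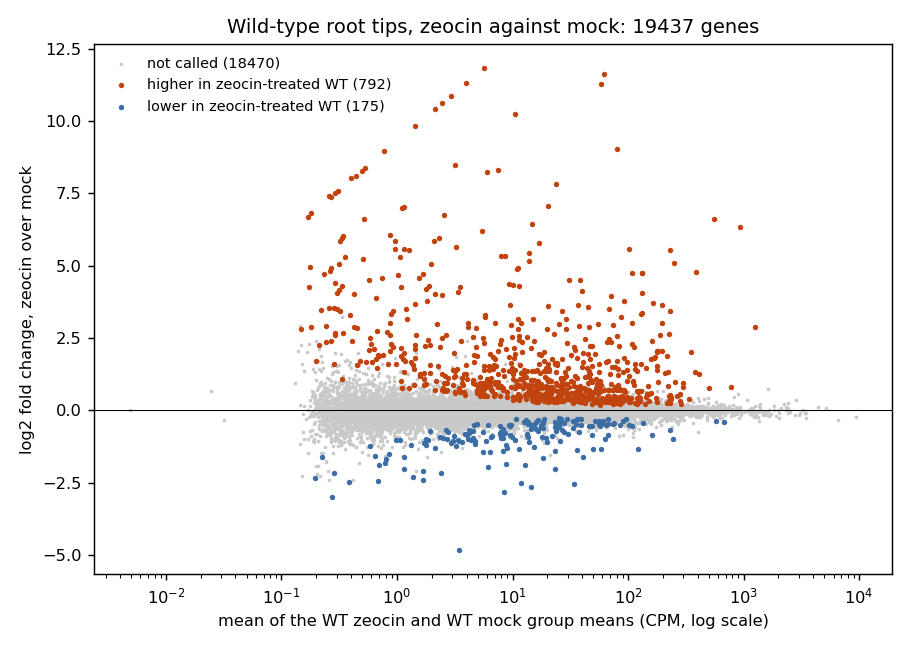
Log2 fold change, zeocin over mock, against the mean level in CPM (log scale) for each of the 19437 genes, with called genes in colour. Called rises (792) reach past 10 on the log2 scale, while the deepest of the 175 called falls lies at -4.82.

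Several of the largest rises outside the core DNA damage genes were of genes with few or no counts in mock root tips. AT4G09215, a non-coding RNA on chromosome 4, had 126, 132 and 113 CPM in the zeocin libraries, against 0.0574, 0.0275 and 0.0302 CPM in the mock libraries. The log2 fold change was 11.61 ± 0.23 (SE), with an adjusted p of 9.87e-11. AT5G07165, an uncharacterized protein, had 125, 113 and 112 CPM with zeocin and at most 0.0603 CPM with mock. No mock library had a count of AT4G25330, a protein with a SAWADEE domain, which had 13.9, 12.3 and 8.02 CPM in the zeocin libraries. Set against a floor of 3 counts over the mock group, that is at least 482-fold higher. AT4G05380, an ATPase of the P-loop class, had 2821 counts over the zeocin libraries and 2 over the mock libraries, a ratio of 1428 (95% interval 395 to 11795, counting error only). AT1G68240, a bHLH transcription factor, had 17.2, 19.9 and 7.23 CPM with zeocin and at most 0.055 CPM with mock. Zeocin replicate 3 was the lowest of that group.

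The rest of the 12 largest rises held enzymes and regulators of several kinds. KCS17, an elongase of very-long-chain fatty acids, had a log2 fold change of 8.25 ± 0.54, and the non-coding AT3G00800 one of 7.81 ± 0.29. The nearest called gene to AT3G00800, AT3G45730, which starts 645 bases away on the same strand, had 276, 224 and 317 CPM in zeocin libraries against 45.8, 62.8 and 47.0 CPM in mock libraries. AT4G25580, a CAP160 protein of the kind linked with cold and drought, rose by 7.05 ± 0.41 on the log2 scale. The thymidine kinase TK1a, which makes thymidine monophosphate for DNA synthesis, had 1086, 1122 and 1081 CPM with zeocin and 11.6, 9.30 and 12.7 CPM with mock. AT5G60250, a RING finger protein, rose by 6.46 ± 0.43, and SRO3, of the family named after RCD1, by 6.21 ± 0.38. GEX1, a membrane protein known from gametes, had 36.1, 37.4 and 27.2 CPM in zeocin libraries and 0.631, 0.908 and 0.377 CPM in mock libraries. For AT5G60250, 12.8% of the exon bases lie opposite an exon of another gene, and the strand setting of the counting is not given in the sources used here. Among non-coding classes, 6 of 96 tested genes annotated as misc_RNA and 6 of 121 lncRNA genes were higher and none lower, while of 92 annotated as ncRNA 1 was higher and 3 were lower. None of 12 miRNA, 23 snoRNA and 9 snRNA genes was called.

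By absolute gain the order was different. AT2G18193, an AAA-type ATPase, gained most, with 2236, 2167 and 2182 CPM in zeocin libraries, against 332, 308 and 263 CPM in mock libraries. TK1a came next, followed by NBR1, the receptor that carries ubiquitinated cargo into autophagy, with 890, 1012 and 1081 CPM in zeocin libraries and 504, 508 and 675 CPM in mock libraries. ARA12, a subtilisin-type protease of the cell wall, had 522, 604 and 557 CPM with zeocin and 134, 133 and 143 CPM with mock. The calcium-binding protein gene CP1 (AT5G49480) had 372, 439 and 459 CPM with zeocin and 32.8, 28.2 and 56.5 CPM with mock. MCCB, a subunit of the carboxylase that breaks down leucine, had 519, 467 and 755 CPM with zeocin and 191, 206 and 329 CPM with mock. In each of these 6 genes every zeocin library lay above every mock library, and each kept its call with any 1 WT library left out. MCCB lost its call in a fit of only the 6 WT libraries.

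The SOG1 palindrome was present in a larger share of the promoters of higher genes than of lower or uncalled ones. SOG1 is known to bind a run of 13 bases that opens with CTT and ends with AAG, with any bases between them, so that the fixed bases read the same on both strands. It was searched between 250 bases before and 50 bases after each gene start of TAIR10.1, and it was found in 176 of 792 promoters of higher genes (22.2%), 15 of 175 of lower genes (8.57%) and 1970 of 18361 of genes not called (10.7%). Over all 19328 promoters read, 11.2% held it. Without the core DNA damage genes the share among higher genes was 21.8%. By size of the rise it was 34.8% at 8-fold or more, 25.9% at 4- to 8-fold, 21.3% at 2- to 4-fold and 17.63% below 2-fold. The share of A and T in these windows was 67.2%, 67.5%, 69.0% and 68.2% in the same order, 71.0% for lower genes and 67.8% for genes not called. A match is a description of letters and not a measured binding site.

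Along the promoters of higher genes the sites were densest between 100 and 51 bases before the start. There were 5.68 sites per 100 promoters there and nearly as many, 5.30, in the first 50 bases of the gene. Between 250 and 201 bases before the start there were 2.02. Promoters of genes not called had 1.98, 1.93 and 1.68 sites per 100 in the same intervals. The windows below show sites upstream of genes described here that are not repair genes, each with 8 bases on either side, read 5′ to 3′ on the strand of the gene, with the fixed bases of the palindrome in capitals. They lie at chr4:16891931-16891959 for AT4G09215 (minus strand; build TAIR10.1 throughout), chr4:2735996-2736024 for AT4G05380 (plus), chr1:25576174-25576202 for AT1G68240 (minus), chr4:13056032-13056060 for AT4G25580 (plus), chr1:26550663-26550691 for SRO3 (minus), chr3:9195278-9195306 for the kinase gene AGC2-1 (plus), chr2:7919398-7919426 for AT2G18193 (minus) and chr4:12740912-12740940 for NBR1 (plus).
AT4G09215: gggcaaagCTTggccagcAAGatttagtg
AT4G05380: agcacgaaCTTactctctAAGcttccctt
AT1G68240: tgttggaaCTTtcaaaagAAGcttcttgt
AT4G25580: tgggctaaCTTgtgaaagAAGgtaacatc
SRO3: tcagaaaaCTTgctgtccAAGttttcgct
AGC2-1: acaaaacaCTTtttaaacAAGgctaaatt
AT2G18193: cacgcttcCTTcctctgcAAGtctcttac
NBR1: gtcaaaatCTTgttggctAAGtcagaaat
The bases between the fixed triplets differ in every window, and the sites end 34 to 130 bases before the gene start. NBR1, which rose by only 0.82 ± 0.13 on the log2 scale, carries another site further upstream.

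**Figure D2:**
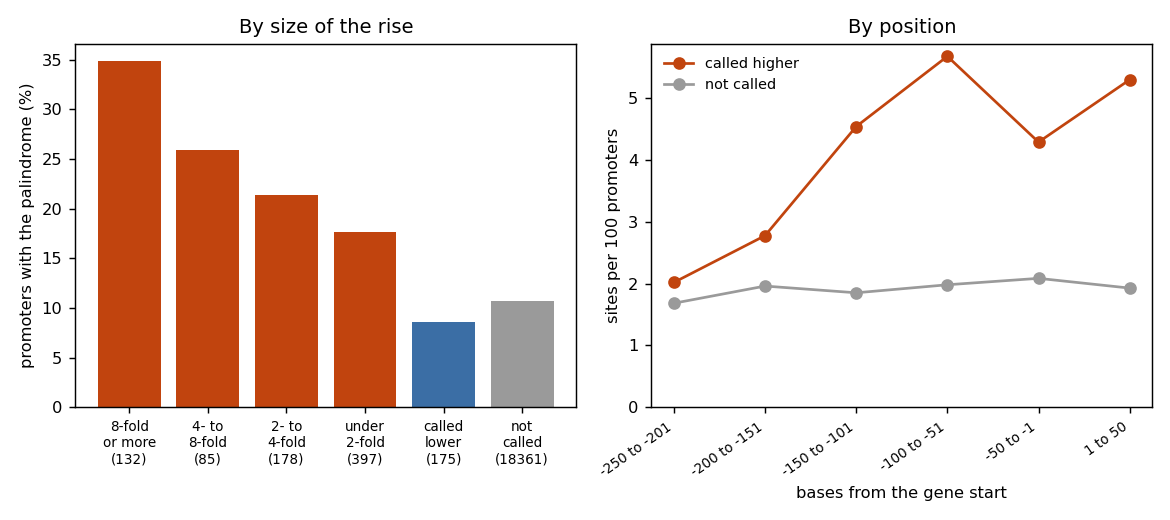
Left, the share of promoters with the SOG1 palindrome by size of the rise, for called falls and for genes not called (number of promoters in brackets); the share is 34.8% at 8-fold or more and 10.7% for genes not called. Right, palindrome sites per 100 promoters in intervals along the promoter, for higher genes and genes not called; the 2 lines are closest in the interval farthest upstream.

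Of the other motifs counted, the E2F site TTCCCGC was rare. It was in 3.28% of promoters of higher genes and 1.66% of all promoters, and in 1 of 175 promoters of lower genes. The W box core TTGAC, bound by WRKY factors, was in 53.2% of higher genes, 39.4% of lower genes and 51.1% of all. The core AACGG of the mitotic MSA element was in 24.9% of higher genes, 18.3% of lower genes and 26.4% of all. For the G box CACGTG the shares were 8.84%, 6.29% and 8.71%, for the auxin element TGTCTC 12.2%, 10.9% and 13.7%, and for the GCC box GCCGCC 2.27%, 0 of 175 and 2.72%, each in the order higher, lower and all. Both strands were searched for each.

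A few genes of protein turnover rose, while most proteasome subunits were not called. The plant proteasome is known to be controlled by the factors NAC053 and NAC078 (listed as NAC2). NAC053 had 136, 145 and 151 CPM in zeocin libraries, against 36.9, 32.2 and 53.9 CPM in mock libraries, whereas NAC078 had 125, 115 and 119 CPM with zeocin and 115, 131 and 126 CPM with mock. Of 35 proteasome subunits tested, 3 (8.57%) were higher and none lower, with a list median of 0.09 on the log2 scale. PAD2, an alpha subunit of the core particle, had 264, 264 and 266 CPM with zeocin and 80.6, 76.6 and 65.9 CPM with mock, a log2 fold change of 1.83 ± 0.08. Its near copy PAD1 rose by 0.44 ± 0.07. The remaining one, PBD1, rose by 0.28 ± 0.07, and it lost its call without zeocin replicate 1 (adjusted p = 0.169) or 2 (0.112), or mock replicate 1 (0.0556), 2 (0.0547) or 3 (0.0684), which leaves 2 subunits called. DESeq2 called 8. AT5G20000, a regulatory ATPase of the RPT6 type, had 264, 272 and 244 CPM with zeocin and 99.6, 95.5 and 103 CPM with mock. Its neighbour and close copy RPT6A had 136, 139 and 137 CPM with zeocin and 143, 141 and 136 CPM with mock. Reads that fit both copies could be split or dropped by the counting, so the level of each is less certain than the contrast between them.

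Some genes that work with ubiquitin were higher too. DDI1, a shuttle protein with a protease-like domain, had 293, 290 and 267 CPM in zeocin libraries and 71.1, 69.7 and 69.2 CPM in mock libraries. SAY1, which has ubiquitin-like domains, rose by 1.22 ± 0.10, and NBR1 by 0.82 ± 0.13. The segregase CDC48, the receptor RPN10 and the ubiquitin gene UBQ10 had log2 fold changes of 0.08, 0.14 and 0.02 and were not called. These 12 genes were put together after their values were seen, so their count of 7 higher is only a description.

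Some ubiquitin ligase genes with few or no counts in mock root tips rose. Of 10 SKP1-like genes tested, which encode adaptors of SCF ligases, 4 neighbours on chromosome 3 were higher and had no count in any mock library. Another 11 had too few counts to be tested. The 4 could pass that filter only through libraries other than WT mock. Their share of the 10 therefore depends on the filter and is not comparable with the 4.07% of all genes. SK9 had 7.38, 3.52 and 3.86 CPM in the zeocin libraries. SK9 was at least 212-fold, SK10 at least 68.2-fold and SK7 at least 47.6-fold higher against a floor of 3 counts over the mock group. The fourth, SK8, at least 24.97-fold higher, lost its call without zeocin replicate 1 (adjusted p = 0.0845) or 3 (0.0772), or mock replicate 1 (0.0589) or 2 (0.0562). With a minimum count of 50 the count of 4 was 1. Near copies such as these can share reads. Of 169 F-box genes tested, 6 (3.55%) were higher and none lower, a share below the 4.07% of all genes, and AT5G07610 led them with 180, 230 and 182 CPM with zeocin and 4.65, 3.85 and 4.07 CPM with mock. ATL2, a RING ligase, rose by 1.05 ± 0.11, and the U-box ligase PUB26 by 1.08 ± 0.09.

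**Figure D3:**
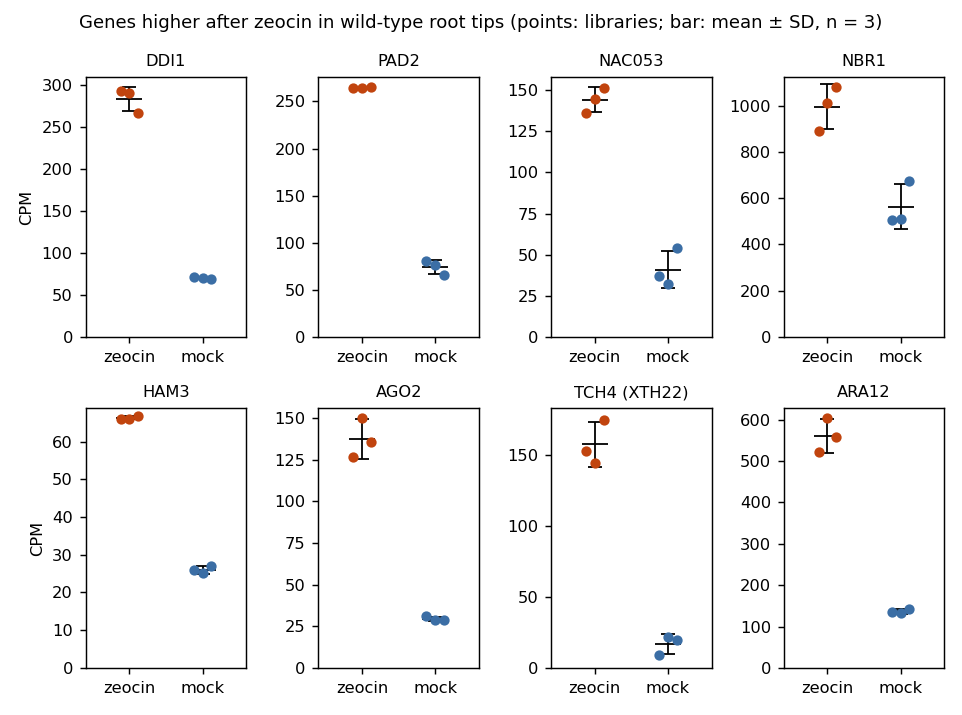
Levels in CPM of 8 genes that rose, by library, with zeocin left and mock right; points are libraries and bars show mean ± SD (n = 3). In each of the 8 panels every zeocin library lies above every mock library; NBR1 has the highest level, with 890 to 1081 CPM after zeocin.

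Transport genes were among the deepest falls. UMAMIT proteins export amino acids, and several of them are known from phloem unloading and from seeds. Of 32 UMAMIT genes tested, 5 were lower (15.6%) and 1 higher (3.1%), against 0.9% and 4.07% of all genes. UMAMIT14 had 0.306, 0.178 and 0.216 CPM in zeocin libraries, against 7.89, 6.03 and 5.87 CPM in mock libraries, and fell by 4.82 ± 0.30 on the log2 scale (adjusted p = 7.28e-07). This was the lowest log2 fold change among all genes tested. At its zeocin levels UMAMIT14 could pass the filter on counts only through libraries other than WT zeocin. The share of lower genes therefore depends on the filter. UMAMIT17 had 1.93, 4.71 and 3.87 CPM with zeocin and 28.3, 14.007 and 17.8 CPM with mock. UMAMIT11 had 2.30, 2.67 and 2.56 CPM with zeocin and 9.87, 11.3 and 7.96 CPM with mock. SIAR1 (UMAMIT18), known to act in the stele, had 21.4, 31.2 and 32.1 CPM with zeocin and 80.5, 59.2 and 75.9 CPM with mock. UMAMIT20, 3753 bases from UMAMIT17, fell by 1.35 ± 0.24. All 5 kept the call with any 1 WT library left out. UMAMIT30 went the other way, with 126, 119 and 115 CPM in zeocin libraries and 26.1, 24.2 and 19.9 CPM in mock libraries.

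Genes that load the xylem fell as well. SKOR, the channel that releases potassium into the xylem, had 3.86, 3.76 and 3.93 CPM in zeocin libraries and 17.44, 12.3 and 11.7 CPM in mock libraries. PHO1, which exports phosphate to the xylem, had 52.1, 76.2 and 80.1 CPM with zeocin and 174, 183 and 162 CPM with mock. HMA4, a zinc pump of the stele, had 31.2, 31.3 and 37.1 CPM with zeocin and 82.8, 100 and 69.1 CPM with mock. These 3 fell by 1.84 ± 0.16, 1.32 ± 0.14 and 1.34 ± 0.14 on the log2 scale and kept their calls with any 1 library left out. Smaller falls were called for FRD3, which exports citrate (1.06 ± 0.20), HMA2 (1.01 ± 0.20), the nitrate transporter NRT1.5 (0.97 ± 0.24), the anion channel SLAH3 (1.07 ± 0.25) and the cytokinin exporter ABCG14 (0.70 ± 0.18).

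Among 12 such genes, put together after their values were seen, 8 were lower. That count was 4 without mock replicate 1 and 5 without zeocin replicate 1, zeocin replicate 3 or mock replicate 2. Without both WT libraries numbered 3 it was 4. NRT1.5, SLAH3 and ABCG14 each lost the call without zeocin replicate 1 (adjusted p = 0.126, 0.133 and 0.184), zeocin replicate 3 (0.0781, 0.099 and 0.138), mock replicate 1 (0.117, 0.0792 and 0.163) or mock replicate 2 (0.129, 0.0655 and 0.0634). HMA2 lost it without zeocin replicate 2 (0.0604) or mock replicate 1 (0.0504), and FRD3 without both libraries numbered 3 (0.0663). SLAH1, a chloride channel subunit of root stele cells, rose to 8.396, 16.5 and 13.9 CPM with zeocin, against 2.90, 3.08 and 2.01 CPM with mock. BOR1, the boron exporter, had 70.7, 67.1 and 81.2 CPM with zeocin and 80.0, 72.3 and 122 CPM with mock and was not called. The nitrate transporter NRT1.8 and the sodium transporter HKT1 had log2 fold changes of 0.32 ± 0.36 and 1.32 ± 0.52 and were not called either. Markers of xylem vessels moved little, with sums over 5 genes of 173 to 232 CPM in zeocin libraries and 180 to 216 CPM in mock libraries and none called. Of 6 phloem markers, 2 were higher: SEOR1, the sieve element filament protein, by 1.62 ± 0.17 and CalS7, the callose synthase of sieve plates, by 0.51 ± 0.08. The other 4 lay between -0.17 and 0.09.

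**Figure D4:**
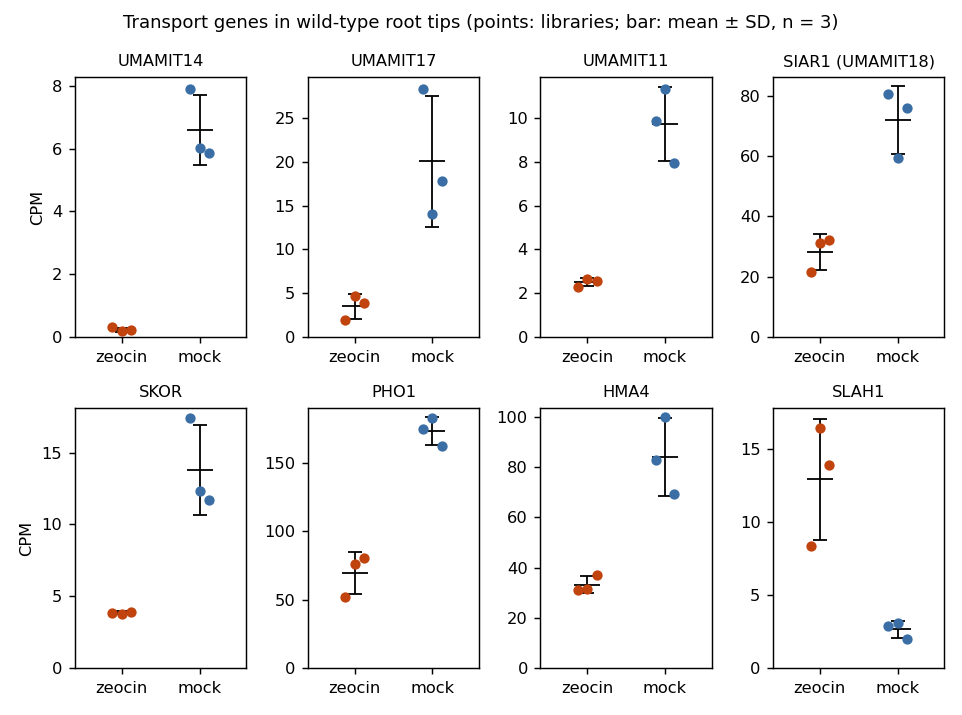
Levels in CPM of 8 transport genes by library, with zeocin left and mock right; points are libraries and bars show mean ± SD (n = 3). The groups do not overlap in any panel; SLAH1 is higher after zeocin and the other 7 genes are lower.

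Further transport genes appeared among the 12 largest falls. AT4G00910, of the aluminium-activated malate transporter family, had 1.29, 2.72 and 2.26 CPM with zeocin and 17.38, 12.9 and 14.1 CPM with mock. AT2G28780, annotated as an efflux pump subunit, had 6.59, 15.7 and 7.79 CPM with zeocin and 74.6, 70.5 and 29.0 CPM with mock. The mock libraries of AT2G28780 spread widely, and replicate 3 was the lowest. For AT4G00910, 43.1% of the exon bases lie opposite an exon of another gene, and for AT5G10580, a protein of unknown function that fell by 2.65 ± 0.19, 11.1% do. The remaining falls were those of AT1G30760, a berberine-bridge type oxidase (2.03 ± 0.35), AT5G43180, a membrane protein of unknown function (1.90 ± 0.19), TPS13, a terpene synthase (1.63 ± 0.29), AT3G62040, a hydrolase (1.604 ± 0.27) and the factor bZIP3 (1.44 ± 0.25).

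The largest losses in CPM, beside NRT1.5, PHO1 and XTH15, were smaller in fold. ERD15, named for early induction by dehydration, had 566, 537 and 648 CPM in zeocin libraries and 699, 776 and 840 CPM in mock libraries. Its call was lost without zeocin replicate 1 (adjusted p = 0.123) or 2 (0.141) or mock replicate 2 (0.0762) or 3 (0.0553). DYL1, of the dormancy-associated family, fell by 0.38 ± 0.10 and kept its call only without mock replicate 1, with an adjusted p of 0.0515 to 0.199 in the other fits with 1 library left out. AT1G56220, a second gene of that family, had 125, 96.6 and 121 CPM with zeocin and 215, 226 and 174 CPM with mock, and kept its call in every such fit.

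Several pumps of the ABC class rose. Of 88 ABC transporters tested, 11 (12.5%) were higher and 1 lower (1.14%), against 4.07% and 0.9% of all genes. ABCB1, an auxin exporter, had 229, 293 and 269 CPM in zeocin libraries and 88.3, 84.7 and 103 CPM in mock libraries. ABCB11 had 295, 355 and 302 CPM with zeocin and 123, 109 and 151 CPM with mock. ABCC9 had 1.13, 1.92 and 1.27 CPM with zeocin and at most 0.0905 CPM with mock. At that mock level it could pass the filter on counts only through libraries other than WT mock. The share of higher genes therefore depends on the filter. The count of 11 was 8 to 17 with 1 WT library left out, and 17 without mock replicate 3. It was 5 in the fit of only the 6 WT libraries. The 1 lower gene, ABCG14, kept its call only without zeocin replicate 2 or mock replicate 3. Of 37 MATE carriers, 2 were higher (5.41%) and 2 lower (5.41%), and AT1G66780 led with a log2 fold change of 4.31 ± 0.30. SLAC1, listed as OZS1, the anion channel of guard cells, had no count in any mock library and 9.13, 9.45 and 5.30 CPM with zeocin, at least 332-fold higher against the floor of 3 counts. Exons of another gene lie opposite 43.0% of its exon bases. No aquaporin of 26 and no SWEET sugar carrier of 7 was called.

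In several families of transcription factors a minority of members rose, with family medians near 0. Of 55 WRKY factors, known from wounding and immunity, 10 (18.18%) were higher and none lower, against 4.07% and 0.9% of all genes. The family's median log2 fold change was -0.02. The count of 10 was 7 to 10 with 1 WT library left out, and 7 in a fit of only the 6 WT libraries. WRKY25 had 87.5, 98.4 and 110 CPM in zeocin libraries and 24.1, 27.5 and 41.2 CPM in mock libraries. WRKY33 had 79.7, 98.4 and 64.3 CPM with zeocin and 29.9, 28.0 and 38.6 CPM with mock. WRKY50 rose by 1.84 ± 0.15 and WRKY20 by 0.45 ± 0.06. Of 69 NAC factors, 7 were higher and none lower, with a median of 0.09. They include NAC044 and NAC085, which belong to the DNA damage pathway, and NAC103, a factor of the unfolded protein response, with 18.9, 19.8 and 7.98 CPM with zeocin and 0.774, 0.358 and 0.151 CPM with mock. ANAC087 had 34.5, 46.9 and 43.8 CPM with zeocin and 9.81, 9.05 and 17.57 CPM with mock.

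The GRAS family held 4 higher (15.4%) and 2 lower (7.69%) genes among 26 tested, against 4.07% and 0.9% of all genes. HAM3, which maintains meristem cells, had 66.1, 66.1 and 66.8 CPM in zeocin libraries and 26.1, 25.04 and 27.1 CPM in mock libraries. HAM4 rose by 1.18 ± 0.18 and AT3G46600 by 1.47 ± 0.09. The gibberellin repressor gene RGA1 fell by 0.37 ± 0.07, a call lost without zeocin replicate 1 (adjusted p = 0.0728) or 2 (0.0725) or mock replicate 2 (0.0552), each of which leaves no lower GRAS gene. Of 63 ERF and DREB factors, 6 were higher (9.52%) and 5 lower (7.94%), with a median of -0.14. DREB2C, a factor of heat and drought responses, had 65.8, 64.5 and 65.7 CPM with zeocin and 21.0, 22.8 and 27.1 CPM with mock. DEAR2, of the same family, fell by 0.66 ± 0.12. The 5 lower became 1 without zeocin replicate 1, 2 without zeocin replicate 2, and 3 without mock replicate 1 or 2. The 6 higher became 4 without zeocin replicate 2 or 3 or mock replicate 1. Of 54 C2H2 zinc fingers, 8 (14.8%) were higher and none lower, with a median of -0.04, among them IDD1, by 0.70 ± 0.08.

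The MYB and bHLH families had calls in both directions. Of 66 MYB factors, 6 were lower (9.09%, against 0.9% of all genes) and 2 higher (3.03%, below the 4.07% of all genes). Over all 66 the log2 fold change was positive for 34 and negative for 32. MYB48 had 0.643, 1.04 and 0.921 CPM in zeocin libraries and 4.22, 4.49 and 3.11 CPM in mock libraries. MYB78 fell by 2.28 ± 0.33. The count of 6 was 2 without zeocin replicate 1 and 3 without zeocin replicate 2 or mock replicate 1. The 2 higher became 0 without zeocin replicate 2 or mock replicate 1 or 2, and 4 without mock replicate 3. Of 88 bHLH factors, 7 were lower (7.95%) and 3 higher (3.41%, below the share of all genes). The lower ones numbered 3 without zeocin replicate 1 or 2 and 4 without mock replicate 2. The higher ones numbered 8 without mock replicate 3. AT4G29100, one of the lower bHLH genes, had 19.1, 20.02 and 22.8 CPM with zeocin and 33.9, 31.0 and 34.0 CPM with mock. No homeobox factor of 42 was called.

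LBD factors shape lateral organs, and LBD16 is known to start lateral roots downstream of auxin. Of 19 LBD genes tested, 5 (26.3%) were lower, against 0.9% of all genes, and none higher. The family median was -0.31 on the log2 scale. Another 21 LBD genes had too few counts to be tested. LBD16 had 1.195, 1.90 and 2.36 CPM in zeocin libraries and 3.38, 4.02 and 4.58 CPM in mock libraries. Its call was lost without zeocin replicate 2 (adjusted p = 0.0559). LBD33 had 0.0306, 0.0296 and 0.0864 CPM with zeocin and 0.688, 0.550 and 0.256 CPM with mock. At such levels it could pass the filter only through libraries other than WT zeocin, so the share of lower genes depends on the filter. LBD14 fell by 2.46 ± 0.37 and ASL15 by 2.17 ± 0.39, and LBD14 was under 1 CPM in every library. Without zeocin replicate 2 the count was 3, and with a minimum count of 50 it was 2. The auxin synthesis gene YUC6, outside the naming rule and picked after its values were seen, had 0.797, 1.18 and 1.22 CPM with zeocin and 2.61, 2.39 and 2.46 CPM with mock.

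In several hormone lists a few members were called, where 4.07% of all genes tested were higher and 0.9% lower. Of 27 Aux/IAA repressors, 2 were higher (7.41%) and 1 lower (3.70%), with 4 higher without mock replicate 3. IAA29 had 6.13, 6.69 and 7.198 CPM in zeocin libraries and 0.373, 0.275 and 0.377 CPM in mock libraries. IAA5 had 58 counts over the zeocin libraries and 2 over the mock libraries, a ratio of 29.4 (95% interval 7.77 to 248, counting error only). IAA2 fell by 0.54 ± 0.10. Of 31 SAUR genes, a class of small auxin-induced genes, 2 were lower (6.45%) and 1 higher (3.23%, below the share of all genes). SAUR36 fell by 1.39 ± 0.20 and AT2G46690 by 0.76 ± 0.12, and AT1G56150 rose by 4.16 ± 0.68, a gain of only 0.569 CPM. Without mock replicate 3, 4 SAUR genes were lower. PIN3, an auxin efflux carrier, fell by 0.30 ± 0.07, and its call was lost in 5 of the 6 fits with 1 library left out, all but that without mock replicate 3. Of 5 gibberellin oxidases tested, 2 were lower, and another 11 had too few counts to be tested. GA3OX1, which makes active gibberellin, had 7.26, 9.92 and 9.79 CPM with zeocin and 26.2, 21.0 and 17.55 CPM with mock. GA20OX2, of an earlier step, had 0.429, 0.355 and 0.345 CPM with zeocin and 1.69, 1.29 and 0.663 CPM with mock. GA20OX2 kept its call only without mock replicate 3, with an adjusted p of 0.0717 to 0.108 in the other fits with 1 library left out. ACS6, an enzyme of ethylene synthesis, had 8.55, 12.8 and 8.58 CPM with zeocin and 2.27, 4.95 and 3.78 CPM with mock, the only call among 13 ethylene genes. AOC1 of jasmonate synthesis rose by 4.50 ± 0.84 on the log2 scale and was the only call among 7 jasmonate genes. Its levels were low, with 1.56, 0.918 and 0.777 CPM with zeocin and 0.0574, 0.0550 and 0.0302 CPM with mock. At their mock levels AOC1, IAA5 and AT1G56150 could pass the filter on counts only through libraries other than WT mock. The shares of higher genes in their lists therefore depend on that filter. No JAZ repressor of 10, no type-A response regulator of 8 and no GH3 enzyme of 7 was called. Of 16 CLE peptide genes, 2 were higher (12.5%) and 2 lower (12.5%). CLE17 rose by 1.58 ± 0.15 and CLE2 fell by 1.09 ± 0.19. CLE41 rose by 1.59 ± 0.34, a call lost without zeocin replicate 1 (adjusted p = 0.0565) or 2 (0.0748), and CLE6 fell by 1.03 ± 0.26 and kept its call only without mock replicate 3.

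BRL3, the receptor gene mutated in the other genotype, was itself higher in WT, with 21.5, 31.7 and 31.2 CPM after zeocin and 9.55, 10.4 and 12.9 CPM with mock. Its log2 fold change was 1.36 ± 0.18 in WT and -0.01 ± 0.26 in brl3-2. The difference of 1.37 had an unadjusted p of 0.00115 and an edgeR adjusted p of 0.99998, and was not called. Of the other 12 brassinosteroid genes only ROT3, a synthesis enzyme, was called, with a fall of 0.41 ± 0.10. That call was lost without zeocin replicate 1 (adjusted p = 0.132) or 2 (0.173) or mock replicate 1 (0.0839) or 3 (0.0809).

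Single members of several cell wall families changed. Of 26 XTH genes, 4 were higher (15.4%) and 2 lower (7.69%), against 4.07% and 0.9% of all genes. TCH4 (XTH22), a gene known from touch responses, had 153, 144 and 175 CPM in zeocin libraries and 9.15, 22.0 and 19.4 CPM in mock libraries. XTH28 had 34.5, 36.9 and 40.0 CPM with zeocin and 10.3, 9.16 and 15.8 CPM with mock. XTR6 rose by 1.82 ± 0.35. XTH15 fell by 0.67 ± 0.14, a call lost without zeocin replicate 1 (adjusted p = 0.0805) or 2 (0.0838), and exons of another gene lie opposite 31.6% of its exon bases. No XTH gene was lower without zeocin replicate 1. EXPA14 was the only expansin of 18 called, at 1.31 ± 0.20, whereas the expansin-like EXLB1, outside the naming rule and picked after its values were seen, fell by 1.42 ± 0.16. Of 53 class III peroxidases, which act on wall polymers, 2 were higher (3.77%, below the 4.07% of all genes) and none lower. AT2G43480 rose by 1.48 ± 0.16, and AT4G33420 by 1.00 ± 0.22, a call lost without zeocin replicate 2 (adjusted p = 0.0774) or 3 (0.0711) or mock replicate 1 (0.0589). Of 44 pectin methylesterases and inhibitors, 2 were higher (4.55%, near the share of all genes) and 1 lower (2.27%, against 0.9% of all genes). AT5G09760 rose by 0.90 ± 0.11 and AT5G62350 fell by 0.71 ± 0.14. AT2G47670 had 1.65, 2.19 and 2.32 CPM with zeocin and 0.344, 0.991 and 0.724 CPM with mock, and kept its call only without mock replicate 2. Without mock replicate 2 the list had 3 higher genes, and without mock replicate 3 it had 3 lower genes. No cellulose synthase gene of 30 and no fasciclin arabinogalactan gene of 17 was called.

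Immune and stress signalling genes rose in part. Of 11 genes of pattern-triggered immunity, 2 were higher, the camalexin enzyme PAD3 by 2.88 ± 0.38 and MYB51, a regulator of indole glucosinolates, by 1.28 ± 0.30. MYB51 lost its call without zeocin replicate 2 (adjusted p = 0.12) or mock replicate 1 (0.116) or 2 (0.0671). A list count of 3 was found without mock replicate 3. SAG101, a partner of EDS1 in immunity, outside the naming rule and picked after its values were seen, had 68.8, 78.4 and 68.9 CPM in zeocin libraries and 12.3, 12.9 and 13.5 CPM in mock libraries. AGC2-1 (OXI1), a kinase of oxidative signalling chosen in the same way, had 127, 149 and 122 CPM with zeocin and 8.98, 6.44 and 10.07 CPM with mock. CRK6, a receptor kinase, had no count in mock libraries and 4.90, 5.77 and 2.20 CPM in zeocin libraries, at least 171-fold higher against the floor of 3 counts. CML11, a calmodulin-like protein, rose by 1.70 ± 0.20. Of 14 touch and wounding genes 4 (28.6%) were higher, including TCH4, WRKY33 and WRKY46. The fourth, RHL41 (ZAT12), kept its call only without mock replicate 3, and its adjusted p in the other fits with 1 library left out was 0.0695 to 0.185.

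Detoxification and organelle stress genes rose singly. BCS1 (OM66), an ATPase of the outer mitochondrial membrane, had 83.4, 95.2 and 51.0 CPM in zeocin libraries and 18.8, 13.9 and 16.6 CPM in mock libraries. GSTU25, a glutathione transferase, had 142, 186 and 118 CPM with zeocin and 39.3, 35.9 and 65.4 CPM with mock, and GSTU22 rose by 1.48 ± 0.29. Of 14 genes of mitochondrial dysfunction and detoxification, BCS1 and GSTU25 were called, and 4 were called without mock replicate 3. In the endoplasmic reticulum the chaperone BIP1 rose by 0.51 ± 0.08. Of 9 genes of the unfolded protein response, BIP1 and NAC103 were called. LHY, a morning gene of the circadian clock, had 15.1, 19.5 and 23.7 CPM with zeocin and 2.95, 2.72 and 8.29 CPM with mock, while of the other 17 clock genes only FKF1 was called, at 0.40 ± 0.10, and its call was lost without zeocin replicate 1 (adjusted p = 0.127) or 3 (0.111) or mock replicate 1 (0.143).

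Chromatin and RNA silencing genes held a few strong rises. AGO2, an argonaute of small RNA pathways, had 127, 150 and 136 CPM in zeocin libraries and 30.9, 28.6 and 29.0 CPM in mock libraries. Its neighbour AGO3 had 2.97, 3.58 and 2.42 CPM with zeocin and 0.201, 0.138 and 0.0603 CPM with mock. No other argonaute of the 7 tested was called. AT5G65360, a histone H3 gene, had 281, 304 and 287 CPM with zeocin and 67.2, 65.9 and 75.7 CPM with mock, while the median of 40 histone genes was -0.00 on the log2 scale. A second histone gene, AT5G10980, rose by 0.32 ± 0.08 and lost its call in 5 of the 6 fits with 1 library left out. Without mock replicate 3, 6 histone genes were called. The helicase RecQl3 had 76.7, 72.7 and 66.1 CPM with zeocin and 19.7, 19.5 and 17.2 CPM with mock.

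Several processes had no gene called at this depth and replication. None of 24 mitotic genes, among them other B-type cyclins than CYCB1;1 and the Aurora kinases, was called, and their log2 fold changes lay between -0.39 and 0.23. The cyclin CYCB1;1, known to respond to DNA breaks, is counted with the core DNA damage genes and not in this list, and it had 89.7, 89.1 and 68.4 CPM in zeocin libraries and 7.77, 6.47 and 6.50 CPM in mock libraries. No gene was called either among 11 genes of iron supply, 7 of sulfur supply, 11 of suberin synthesis, 9 of phenylpropanoid and flavonoid synthesis and 11 of developmental cell death. The last list lay between -0.02 and 0.74. Heat shock and hypoxia lists had 1 lower gene each, of 10 tested in both. HSF4 (HSFB1) fell by 0.47 ± 0.11 and ERF73 (HRE1) by 0.53 ± 0.11, and neither kept its call without zeocin replicate 1 (adjusted p = 0.166 and 0.063) or 2 (0.152 and 0.0589). HSF4 also lost it without mock replicate 2 (0.0633) or 3 (0.0767).

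**Figure D5:**
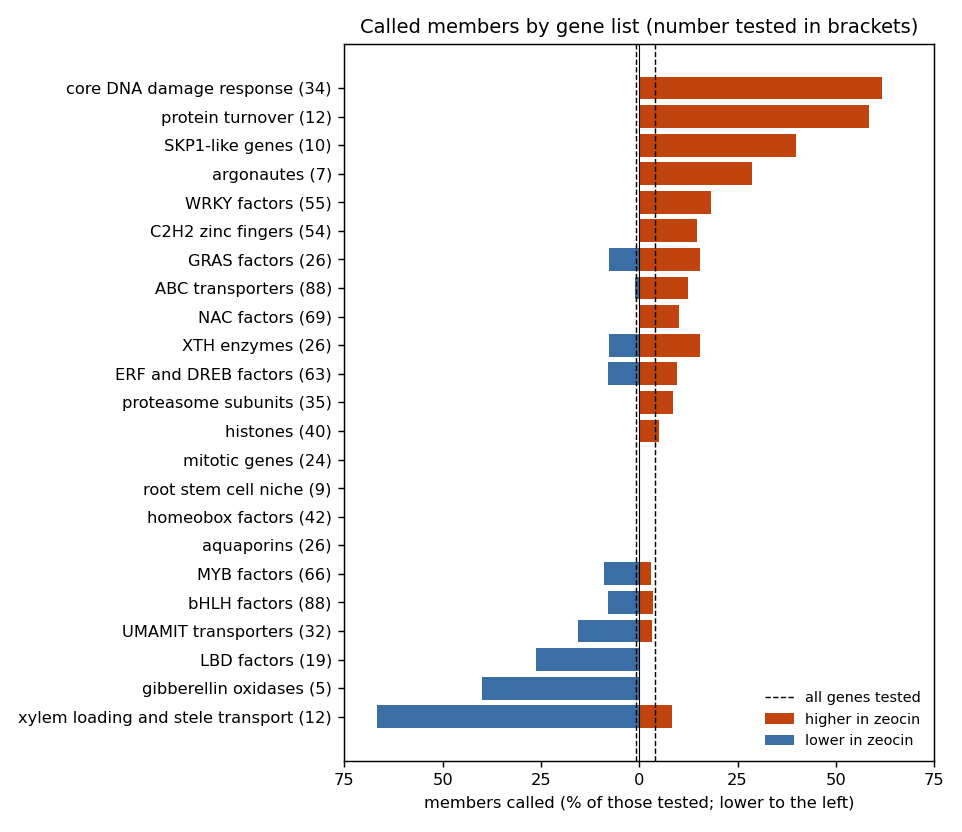
Share of tested members called higher (right) and lower (left) in each gene list, with the number tested in brackets and dashed lines at the shares for all genes, 4.07% and 0.9%. The WRKY, NAC, C2H2, SKP1-like and protein turnover lists have bars on the right only, the LBD and gibberellin oxidase lists on the left only, ABC transporters and MYB factors among others on both sides, and mitotic, stem cell niche, homeobox and aquaporin lists have no bar. The protein turnover and xylem loading lists were put together after their values were seen, so their bars are not comparable with the dashed lines. The shares in all lists depend on the filter on counts, among them those of the SKP1-like, LBD, UMAMIT and ABC transporter lists.

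In brl3-2 root tips the same treatment called 840 genes higher (4.32%) and 205 lower (1.05%). Of the WT calls, 694 higher genes were also higher in brl3-2, which is 87.6% of the WT list and 82.6% of the brl3-2 list. For lower genes, 121 were shared, 69.1% of the WT list and 59.0% of the brl3-2 list. No gene was called in opposite directions. UMAMIT14 changed by -5.13 in brl3-2 and -4.82 in WT on the log2 scale, SKOR by -1.84 and -1.84, PAD2 by 2.04 and 1.83, and HAM3 by 1.36 and 1.35. The difference between the genotypes in the response was called for 0 of 19437 genes with edgeR, with 194 genes at an unadjusted p under 0.05, and for 0 with DESeq2 or limma-voom. A p that misses the threshold does not show that the genotypes respond alike.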

How the data were processed

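RNA-seq counts per gene were deposited for 12 libraries of root tips. Per the submitters' processing notes, the tools included HISAT2 2.1, featureCounts 1.6.2, Trimmomatic 0.38, edgeR 3.34.1 and FastQC 0.11.2, and the build was TAIR10. No source used here gives the strand setting or says how the 2 runs of a library were merged. The library kit keeps strand, per the labels' protocols. The deposited counts are whole numbers with no normalization. A row without a gene name held at most 0.0039% of counts and was left out.

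Counts were fitted with edgeR 4.0.16 (quasi-likelihood, TMM, filterByExpr with minimum count 10 and total 15) with 1 coefficient for each of the 4 groups over 12 libraries, and p-values were adjusted by Benjamini-Hochberg over 19437 genes. CPM values are scaled by TMM, and SE is the log2 fold change divided by the root of F. The p-values measure the spread between libraries, which differed by far more than sampling noise. Intervals and floors cover counting error only. Genes, lists and motifs were chosen with earlier results of these data known. Named genes were the 12 largest rises and falls outside the core DNA damage list (no overlap; at least 10 or 5 CPM in the higher group), the 6 largest gains and losses in CPM, and up to 4 called members per list by adjusted p; the 2 lists put together later are given whole. Family members were matched by RefSeq symbols or product text, with clashing symbols removed after viewing. A gene low in 1 group can pass the filter through another group, so shares over the members tested depend on the filter. Promoters and gene positions are from RefSeq TAIR10.1. Alternatives were RLE factors, other filters, DESeq2 1.42.0, limma-voom (limma 3.58.1), a replicate block, WT libraries alone and libraries left out. The procedure was tested on simulated data.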

Additional observations from a re-analysis of the deposited data

How the results depend on the processing

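The count of higher genes, 792, was 766 with RLE size factors, 758 with no filter, 715 with a minimum count of 50, 929 with DESeq2 and 799 with limma-voom. The 175 lower genes were 182, 168, 166, 291 and 175 under the same settings. A fit of only the 6 WT libraries, with fewer residual degrees of freedom, called 487 higher and 79 lower. With a 2-fold threshold 395 and 63 remained. Leaving out 1 WT library gave 579 to 1059 higher and 93 to 340 lower; the lower genes numbered 93 without zeocin replicate 1, 94 without zeocin replicate 2 and 340 without mock replicate 3, and the cause was not tested. Without both WT libraries numbered 3 the counts were 874 and 259. The count of differences between the genotypes was 0 in every fit run. Whether replicate numbers pair the samples was not settled, and the main fit took them as unpaired. Deviations of same-numbered WT libraries correlated at 0.24, 0.01 and 0.59. Zeocin replicate 3 correlated at -0.46 and -0.35 with mock replicates 1 and 2. Mock replicate 3 correlated at -0.45 and -0.19 with zeocin replicates 1 and 2. The value was 0.36 for zeocin replicate 1 with mock replicate 2, and 0.27 for zeocin replicate 2 with mock replicate 1. With a replicate block 826 genes were higher and 215 lower, 750 and 159 of them in common with the fit without it; the block in the 6 WT libraries alone, added after seeing the data, gave 626 and 155. Of 173 named genes called, 121 kept the call under every alternative in which they were tested, and none changed sign. The fit of only the 6 WT libraries lost 43 of the 171 it tested, among them MCCB, LHY, ACS6, bZIP3, XTR6, GSTU22, IAA2 and DEAR2. Scaling moved the median log2 fold change by less than 0.01. Genes under about 1 CPM rest on few counts.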
